A study of Mus musculus
Mus spretus with 18 samples.

Results

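The cytoplasmic ribosomal protein genes were taken as every gene whose symbol is Rpl or Rps followed by a number, with an optional a, x or l and a further digit, together with Rpsa, Rplp0, Rplp1 and Rplp2. The rule found 87 of the 38924 genes in the expression table, 36 named for the small and 51 for the large ribosomal subunit. In fibroblasts it found 281 of 67961 skipped exon (SE) events, in 78 genes, and 27 of 2243 retained intron events, in 20 genes. RefSeq (GRCm38.p6) lists 86 of the 87 symbols, 3 of them as pseudogenes (Rps12l1, Rps3a2 and Rps3a3), and the symbol Rps12l2 was not found there. The row labelled Rpl24 goes against its label: all 4 of its tested exon events lie outside RefSeq's Rpl24 (chr16:55966275-55971437) and inside the next gene, Zbtb11 (chr16:55971437-56008913). The rule counts it as a member, but its values are not shown to be those of Rpl24, and some of the counts that rest on it are also given without it. Of the 20 tested exon events of Rpl13a, 4 likewise lie outside RefSeq's Rpl13a.

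The libraries came from F1 hybrids of a C57BL/6J mother and a SPRET/EiJ (Mus spretus) father, so that each cell carries 1 allele of either strain. Cortex, heart, kidney, lung, spleen and liver were taken from mice aged 8 weeks, and embryonic stem cells (ESC) from separate clones, with 2 libraries per tissue. By the study's methods the organs, liver included, came from 2 animals, so organ libraries share animals across tissues, while the tests among tissues took them as independent. An F1 fibroblast line was treated for 4 h with 0.1 µM pladienolide B (PladB), a compound that binds the SF3B complex of the spliceosome, or with the solvent DMSO, with 2 libraries each. The labels do not say whether the fibroblast libraries came from separate cultures, so p-values there measure only the spread between these libraries, and all fibroblasts are 1 line. The liver labels carry other strain names than the other organs, and the liver libraries were used as the study describes them.

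Ribosomal proteins assemble with ribosomal RNA into the small subunit, which reads the mRNA, and the large subunit, which joins amino acids. Their mRNAs are abundant and short, with many small exons, and begin with a tract of pyrimidines through which growth signals control their translation. A few members have a second copy that arose by duplication (a paralog, such as Rpl3l for Rpl3) and that is known for use in particular tissues.

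Expression was given as TPM, the reads of a gene per length, scaled to the same total in each library, so a member can rise in TPM when other transcripts fall. Junction reads summed over all SE events, where a read can count in several events, ranged from 46558287 to 151755602 per library, and those in members from 607698 to 12998185. Defining markers of each organ and of ESC were highest there. Summed over 3 markers of pluripotent cells (Pou5f1, Nanog, Zfp42), ESC held 2628 and 2669 TPM and no other library more than 0.713. The 4 markers of fibroblasts summed to between 2281 and 2425 TPM in the fibroblast libraries, and to 1008 and 1085 in cortex, the next highest group. Markers of hepatocytes (Alb, Apoa1, Ttr) also summed to 1423 and 1223 TPM in cortex, against 104174 and 123356 in liver, and those of heart muscle to 949 and 760 in lung, against 59504 and 59659 in heart.

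Ribosomal protein mRNA took its largest shares in ESC and spleen and its smallest in liver. The 87 genes together held 11.0% and 12.5% of all TPM in the ESC libraries and 12.5% and 9.86% in spleen. They held 4.00% and 3.86% in lung, 2.92% and 3.002% in heart, 2.66% and 2.78% in kidney, 2.14% and 2.07% in cortex, and 1.48% and 1.33% in liver. ESC and spleen overlapped, and the libraries of the other neighbours in this order did not. By the study's methods spleen, lung and ESC were sequenced with shorter reads than heart, kidney and cortex, and the longer reads were trimmed to match. The liver data came from an earlier study. The order of shares follows these sequencing sets, so between sets tissue and sequencing cannot be told apart. The spleen libraries differed most from each other, and the immunoglobulin gene Igkc took 3.06% of TPM in the first and 6.21% in the second, where erythroid markers summed to 2464 and 5162 TPM. Proliferation markers (Mki67, Top2a, Mcm5) summed to 415 and 619 TPM in ESC and 131 and 286 in spleen, and to between 1.87 and 18.2 in the other organs, and their part in these shares was not tested. In bulk tissue, more cells of a type and more RNA per cell cannot be told apart.

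**Figure D1:**
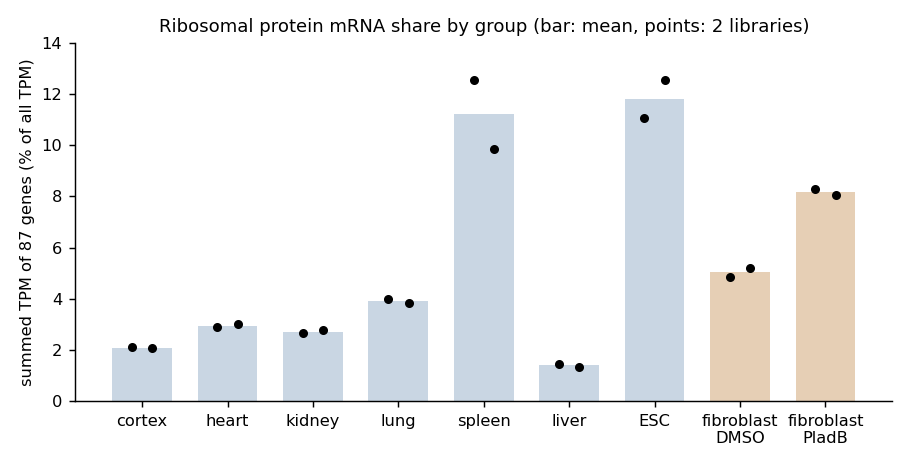
Summed TPM of the 87 ribosomal protein genes as a percentage of all TPM (vertical axis, from 0) in each tissue and fibroblast group. Bars are means and points the 2 libraries, and ESC and spleen stand above all other groups while the PladB libraries, at 8.28% and 8.07%, stand above the DMSO libraries, at 4.85% and 5.22%.

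The members moved largely as a block. The tissue mean was highest in ESC for 50 members, in spleen for 35, in heart for 1 (Rpl3l) and in cortex for 1 (the row labelled Rpl24), and lowest in liver for 77. Both ESC libraries lay above every library of cortex, heart, kidney, lung and liver for 85 members, and both spleen libraries for 82. Between ESC and spleen, 31 members were higher in both ESC libraries, 7 in both spleen libraries, and the other members overlapped. Counts of this kind were not made over all genes, so they do not show what is particular to the members. The ratio of large to small subunit TPM ranged from 0.971 in a spleen library to 1.26 in a PladB library.

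Of the members, 86 passed the filter of a mean of 0.5 TPM over the 14 tissue libraries, and 86 differed among the tissues (limma F test on log2(TPM + 0.1), FDR under 0.05), against 99.4% of all 20826 genes tested, so the test does not set the members apart. In ESC against the mean of the 6 organs, 85 members were higher and 1 lower, where 49% of all genes were higher and 34% lower. Without the row labelled Rpl24, 84 of 85 members were higher in ESC, and 85 of 85 differed among the tissues. The median member was 3.71-fold higher in ESC and the median gene 1.28-fold, on the log2(TPM + 0.1) scale. Rpl32 of the large subunit had 6231 and 6226 TPM in ESC and 452 to 4357 in the organs (log2 difference 2.63 ± 0.09 SE, adjusted p = 6.4e-09). Rpl12, which helps to form the stalk base of the large subunit, had 1048 and 856 TPM in ESC and 60.2 to 886 in the organs (2.57 ± 0.10, adjusted p = 1.4e-08). The 1 member lower in ESC was Rpl3l (-0.32 ± 0.10, adjusted p = 0.012), and without the first ESC library 0 were lower. The smallest rises in ESC were those of the row labelled Rpl24 (1.03 ± 0.11), Rpl22l1 (1.22 ± 0.15), Rps29, with 1949 and 2099 TPM in ESC and up to 3702 in spleen (1.20 ± 0.12), and Rpl37a, whose ESC libraries held 1061 and 2016 TPM (1.21 ± 0.20).

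The stalk proteins, which recruit translation factors to the ribosome, differed in level among themselves. Rplp1 was among the most abundant members, with 7329 and 7311 TPM in ESC, 8809 and 6452 in spleen and 915 and 857 in liver. Its partner Rplp2 held 867 and 999 TPM in ESC and 82.6 and 74.02 in liver, and Rplp0 1744 and 2308 TPM in ESC and 173 and 175 in cortex, its lowest tissue. Rpsa, a small subunit protein also known as the laminin receptor, reached 3048 and 3595 TPM in ESC and 2506 and 2102 in spleen, and lay between 277 and 601 in the other organs. Rps23, a protein of the decoding centre, had 2601 and 2544 TPM in ESC, and Rps24 had 3939 and 2871 TPM in spleen and 315 and 292 in liver.

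The paralogs Rpl10l, Rpl3l, Rpl39l and Rps27l carried the largest log2 differences between tissue means, while the paralogs Rpl22l1 and Rpl7l1 ranked lower. Rpl3l, the striated muscle copy of Rpl3, had 518 and 499 TPM in heart and between 0.708 and 9.02 in the other tissue libraries. Rpl3 itself had 192 and 210.5 TPM in heart, 210.1 and 206 in liver and 2435 and 2574 in ESC, so that heart was the one tissue where the paralog exceeded its partner. Rpl10l, an intronless copy of Rpl10 known from the testis, was listed with 261 and 239 TPM in ESC and with 0 in every other library. Rpl39l, also known from male germ cells, had 41.5 and 33.8 TPM in ESC and at most 0.253 in the organs, while Rpl39 had 756 and 896 in ESC. The testis germ cell markers Prm1 and Tnp1 summed to 0 and 0.236 TPM in the ESC libraries. The study's methods list the counting settings and split fragments that overlap several genes among those genes. They name no counting option for reads that align to several places, so the levels of close copies such as Rpl10 and Rpl10l are uncertain.

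Rps27l, a copy of Rps27 that responds to p53, had its own order of tissues. It was highest in ESC, with 549 and 502 TPM, followed by kidney with 245 and 240.0 and liver with 257 and 200.3, and lowest in cortex with 28.8 and 25.9. Liver and kidney overlapped. Rps27 was highest in spleen, with 9916 and 6496 TPM, and lowest in liver, with 712 and 603. Rpl22l1, the copy of Rpl22, had 307 and 307 TPM in cortex, where Rpl22 had 75.1 and 71.1, and 69.9 and 78.0 in heart, below the 97.3 and 102 of Rpl22. Rpl7l1, a nucleolar relative of Rpl7 with a role in subunit assembly, had 228 and 252 TPM in ESC and between 37.8 and 87.4 in the organs.

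**Figure D2:**
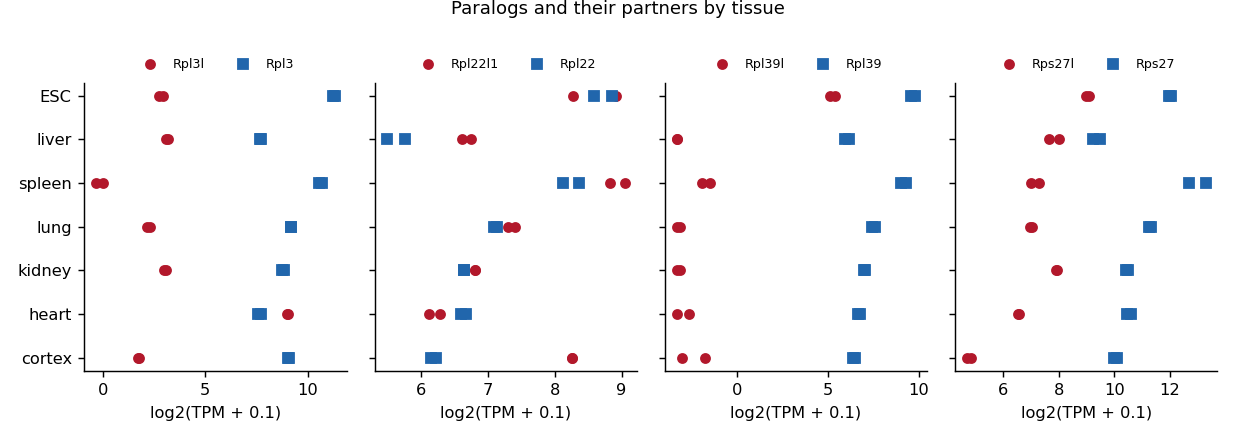
Expression of 4 paralogs (red circles) and their partners (blue squares) as log2(TPM + 0.1) on the horizontal axes, by tissue, with each of the 2 libraries as a point. Rpl3l passes Rpl3 in heart, Rpl39l lies far above its other tissues in ESC, and Rpl22l1 stands clear of Rpl22 in cortex.

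The row labelled Rpl24 had 35.6 and 35.9 TPM in cortex, 20.9 and 19.3 in spleen, 23.7 and 18.7 in ESC and between 4.33 and 9.21 in the other organs. These levels are below the median member of each tissue, which lay between 107 and 999 TPM. Pseudogenes named after members, 222 rows, summed to between 3.54% and 5.06% of the members' TPM in all 18 libraries. Some X-linked members differed between the ESC clones: Rpl10 had 607 and 1468 TPM, Rpl36a 398 and 976 and Rps4x 1973 and 3510. Rpl39, also on X, differed less, with 756 and 896.

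Genes of the same system outside the rule were examined for comparison. Among all genes tested, 49% were higher in ESC and 34% lower, with a median of 1.28-fold. Of 17 genes listed for a pyrimidine tract, translation factors along with others such as Npm1, Hnrnpa1 and Vim, 16 were higher in ESC. Ribosome biogenesis genes were higher in 29 of 30 cases, with a median of 5.23-fold. Of the 76 genes for mitochondrial ribosomal proteins, 55 were higher and 5 lower, with a median of 1.42-fold. Of the pseudogenes, 91 passed the filter and 86 were higher and 1 lower.

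After PladB, most members rose in TPM while most other genes fell. The members' summed share went from 4.85% and 5.22% of TPM with DMSO to 8.28% and 8.07%. Of 85 members tested, 81 were higher and 2 lower (limma, FDR under 0.05), where 14.4% of all 14283 genes tested were higher and 71% lower. The members' median was 1.63-fold, with folds from 1.303 to 2.43 among those called higher, and the median of all genes was 0.467-fold. The median gene of a library shifted by -1.50 on the log2 scale, and relative to that gene the members' rise is larger by the same amount. TPM does not say whether the amount of member mRNA per cell changed. Markers of proliferation fell from 361 and 348 to 131 and 118 TPM.

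The largest rises were in members of both subunits. Rps29 went from 313 and 358 TPM to 715 and 702 (log2 difference 1.08 ± 0.09 SE, adjusted p = 6.8e-04). Rplp2 went from 165 and 198 TPM to 370.4 and 370.4 (1.03 ± 0.11), and Rpl26, which can regulate p53 translation, from 206 and 219 to 431 and 431 (1.02 ± 0.06). Rplp1 had 2403 and 2651 TPM before and 5082 and 4652 after. Rpl39, Rpl37a, Rps21 and Rps28 rose by between 1.90-fold and 1.94-fold. Rps12l1 (0.24 and 0.604 to 1.20 and 0.994 TPM) and Rps12l2 (12.1 and 14.5 to 30.4 and 25.9 TPM) also rose, and the levels of these close copies of Rps12 are uncertain. Rpsa, Rplp0 and Rps24 rose by between 1.56-fold and 1.61-fold, near the members' median.

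Of the 2 rows that fell, 1 is Rpl7l1, and without the row labelled Rpl24 it is the 1 member lower of 84. Rpl7l1 went from 98.4 and 99.7 TPM to 13.1 and 12.4 (log2 difference -2.95 ± 0.06 SE, adjusted p = 4.4e-05). The row labelled Rpl24, which may not measure that gene, went from 13.0 and 13.1 to 5.29 and 5.45 TPM (-1.27 ± 0.05, adjusted p = 9.5e-05). With TPM centred on the median gene, 1 member was lower. Rpl3l (4.21 and 3.93 to 3.71 and 3.46 TPM) and Rpl27 (231 and 260 to 286 and 283) did not pass the test.

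**Figure D3:**
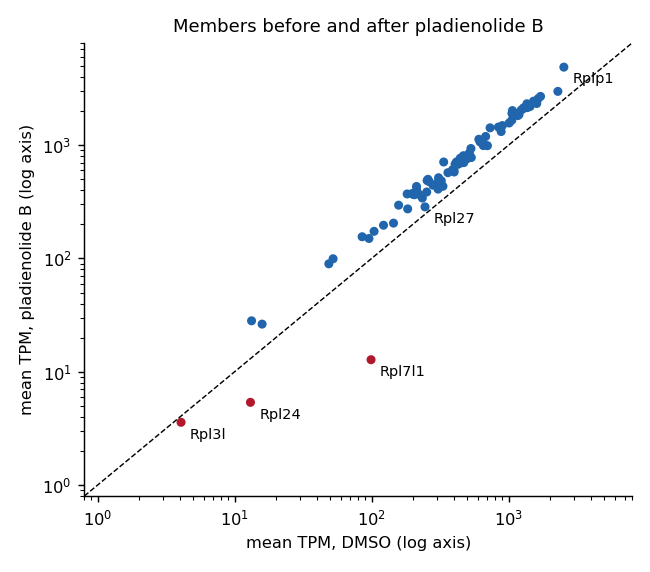
Mean TPM with DMSO (horizontal, log axis) and after PladB (vertical, log axis) for members above 0.5 TPM with DMSO, each point 1 gene. Nearly all points lie above the dashed line of equality, and Rpl7l1, the row labelled Rpl24 and Rpl3l lie below it.

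The related lists moved apart after PladB, where 14.4% of all genes tested were higher and 71% lower, with a median of 0.467-fold. Rpl36al, a copy of Rpl36a outside the rule, went from 114 and 124 to 332 and 334 TPM. Of the 17 genes listed for a pyrimidine tract, translation factors and others, 10 were higher and 1 lower, with a median of 1.15-fold. The translation factor gene Eef1a1 went from 8434 and 8384 to 12432 and 11652 TPM. Of 30 ribosome biogenesis genes, 3 were higher and 24 lower, with a median of 0.470-fold, near that of all genes. Ubtf, a factor for transcription of ribosomal RNA, went from 54.1 and 50.5 to 7.80 and 7.65 TPM. Of 76 mitochondrial ribosomal protein genes, 9 were higher and 49 lower, with a median of 0.686-fold. Of 68 pseudogenes that passed the filter, 39 were higher and 3 lower.

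Exon inclusion was measured as PSI, the length-corrected share of junction reads that include the exon, and a call needed an FDR under 0.05 and a difference in PSI of at least 0.1. Of 258 SE events of members, at 197 exons in 75 genes, 2 had lower inclusion after PladB and 0 higher by this rule, where 7.16% of all 54535 events were lower and 0.11% higher. By FDR alone 29 events in 21 genes were lower and 0 higher, where 14.7% of all events were lower and 0.273% higher. The members' median difference was -0.00032, against -0.0052 over all events. In 24 of the 29 events the drop was under 0.02. With DMSO, 27 of the 29 had a PSI of at least 0.99, as did 241 of the 258 events tested.

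Of the 2 called exons, 1 lies in Rpl7l1, the member whose TPM fell most. This exon at chr17:46779285-46779422 (mm10, 138 bp) had 0.9915 and 0.9901 with DMSO and 0.829 and 0.827 after (adjusted p = 0.0015), on at least 556 reads per library. A second Rpl7l1 exon, at chr17:46781783-46781891, fell by 0.047. The other called exon, at chr16:56000579-56000723 (145 bp), carries the label Rpl24 but lies in RefSeq's Zbtb11, and went from 0.996 and 1.000 to 0.351 and 0.526 (adjusted p = 0.0035) on 521 and 540 reads before and 64 and 35 after. Without the events labelled Rpl24, 1 of 254 events was called, and likewise 1 with at least 50 reads per library. Without the second DMSO library 4 events were called lower and 1 higher, and without the first PladB library 6 lower.

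Smaller drops in inclusion occurred in abundant members. A Rpl41 exon of 23 bp at chr10:128548658-128548680 went from 1.000 and 1.000 to 0.972 and 0.970 (adjusted p = 9.5e-04), on 41042 to 91098 reads. An exon of Rpl6 at chr5:121207147-121207195 went from 1.000 and 1.000 to 0.988 and 0.984. Among others, exons of Rpl15, Rpl7a, Rpl21, Rps27a, Rpl4, Rpl13, Rplp1, Rps6, Rpl3, Rpl29, Rpl8, Rpl28 and Rpl5 fell by between 0.0018 and 0.012. A pair of rarely used exons also fell: Rps19 from 0.057 and 0.055 to 0.033 and 0.039, and Rps9 from 0.018 and 0.015 to 0.0081 and 0.0080. Of the 29 exons, 8 have a length that is a multiple of 3, against 79 of the 197 exons tested. The Rps24 exons did not pass the test, with PSI of at least 0.993 in every library.

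Introns of members were retained more often after PladB, at low levels and with a smaller median rise than over all events. Of 26 intron events tested in 19 genes, 15 rose and 0 fell by FDR alone, where 48.2% of all 1802 events rose and 7.77% fell. By the call rule 0 passed in either direction, where 35.2% of all events rose and 2.94% fell. At an FDR under 0.05 with a difference of at least 0.05 there were 2, and by the call rule 1 without the first PladB library. In all 15 both PladB libraries lay above both DMSO libraries, and the median ratio of PSI was 4.76. The 15 were picked by the test on these same libraries, which favours both values, and neither was computed over all events. The members' median difference was 0.0062 and that of all events 0.037.

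Among the 15 introns that rose, the highest retention was in Rpl10a, a large subunit protein, at chr17:28329281-28329373, with 0.385 and 0.375 before and 0.447 and 0.487 after (adjusted p = 0.0015). This event had 2545 to 3831 reads per library. A longer Rpl10a event that holds the same stretch, at chr17:28329048-28329373, had 29939 to 53692 reads. Its retention was low, with 0.048 and 0.040 before and 0.032 and 0.037 after, and it did not pass the test. An intron of Rpl7a at chr2:26912802-26912987 went from 0.0069 and 0.0061 to 0.048 and 0.073, one of Rpl41 at chr10:128548681-128548948 from 0.0066 and 0.0054 to 0.038 and 0.045, and one of Rps16 at chr7:28352274-28352362 from 0.0022 and 0.0024 to 0.019 and 0.029. The ratio of mean PSI was 9.31 in Rpl7a and 10.5 in Rps16. Some introns of ribosomal protein genes hold snoRNA genes, which guide modification of ribosomal RNA, and RefSeq places 1 within 6 of the 26 tested events and 4 of the 15 that rose, among them Snord34 in Rpl13a and Snord68 in Rpl13. The Rpl13a intron with Snord34 at chr7:45126538-45126708 went from 0.0090 and 0.0073 to 0.018 and 0.027. In 14 of the 15 the second PladB library was above the first, and Rps18 was the exception. The X-linked Rpl10, tested in a fit that kept X, had an intron that went from 0.033 and 0.031 to 0.077 and 0.128 (adjusted p = 1.2e-04).

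**Figure D4:**
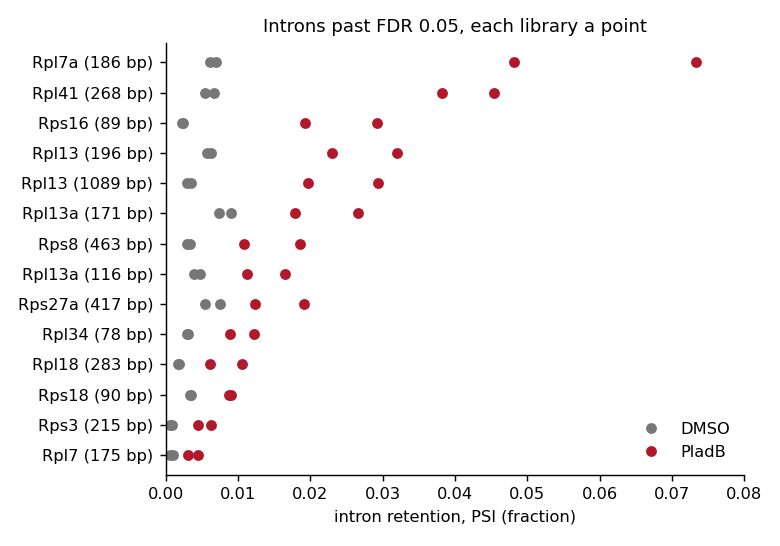
Retention of 14 member introns past an FDR of 0.05 (PSI as a fraction, horizontal axis), with each library a point, gray for DMSO and red for PladB, ordered by size of change. Within each intron both red points lie to the right of both gray ones, and the Rpl10a intron, at 0.375 to 0.487, is left out for scale.

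Across the 7 tissues, 130 of 159 exon events of members had a mean PSI of at least 0.99 in every tissue measured, and 6, among them those of Rps19 and Rps9, a mean PSI under 0.1. Of these events, in 67 genes, 23 differed by FDR alone and 2 by the call rule, where 12.9% and 9.36% of all 47963 events did so. The median of the largest difference between tissue means was 0.0010 for members and 0.015 over all events. An exon of Rpl17, a protein near the exit tunnel of the large subunit, had PSI of 0.970 and 0.980 in ESC, 0.964 and 0.967 in cortex, 0.961 and 0.952 in liver, 0.879 and 0.886 in heart, 0.876 and 0.874 in kidney, 0.850 and 0.859 in lung, and 0.824 and 0.854 in spleen, on 1404 or more reads. The Rpl10a exon at chr17:28328967-28329280 ranged from 0.439 in spleen to 0.897 in cortex, but its kidney libraries gave 0.938 and 0.374 and its heart libraries 0.368 and 0.707 on 35 to 147 reads, so the order of these tissues lies within the spread of libraries. With the replicate number as a block, 1 event was called here, where 5.97% of all events were, and after PladB 0 member events and 0% of all events were called lower.

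Alleles were compared by the same test in each tissue. Over the 7 tissues 653 pairs of event and tissue were tested, and 10 pairs in 4 genes were called, where 1.35% of all pairs were called. By FDR alone 25 pairs passed, where 1.83% of all pairs passed. By tissue, 5 of 63 events passed by FDR in cortex (background 2.02%) and 3 were called (1.63%). In kidney 4 of 79 passed (2.75%) and 2 were called (1.81%), and in lung 4 of 85 passed (2.39%) and 2 were called (1.79%). In spleen 6 of 139 passed (1.89%) and 2 were called (1.48%), and in ESC 4 of 172 passed (0.274%) and 1 was called (0.245%). Heart (1 of 69 by FDR, 0 called) and liver (1 of 46, 0 called) had backgrounds of 2.22% and 1.75%, and of 1.93% and 1.16%. All 10 called pairs had lower inclusion on C57BL/6J. In 9 of the 10 the allele with fewer reads held under 0.25 of the reads of the other, and 11 of the 25 were of this kind, and the part of this imbalance in the calls was not tested. Both alleles of a library share the library, and with the library as a block 0 member events and 0% of all events were called in the tissues and in either fibroblast group.

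The called pairs lay in Rps19, Rpl27a, Rpl30 and Rpl17. For Rpl27a, called in cortex, kidney, lung and spleen, an exon of the large subunit gene had PSI of 0.512 and 0.550 on C57BL/6J and 0.994 and 0.995 on SPRET/EiJ in kidney, on 31 and 31 against 1890 and 2304 reads. For Rpl30 in spleen, the 1 call on balanced reads, PSI was 0.888 and 0.895 on C57BL/6J and 1.000 and 0.999 on SPRET/EiJ, on 4092 reads or more (adjusted p = 4.5e-04). The Rpl17 exon in cortex had 0.652 and 0.592 on C57BL/6J, on 31 and 29 reads, and 0.975 and 0.981 on SPRET/EiJ. Its mean was instead higher on C57BL/6J in lung (0.932 against 0.788) and in spleen (0.886 against 0.728), and neither passed. In ESC, kidney and both fibroblast groups its alleles lay closer together and did not pass.

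A few exons differed in most groups. An exon of Rps19, a small subunit protein mutated in Diamond-Blackfan anaemia, lies at chr7:24886107-24886187 (81 bp). It had PSI of 0.024 and 0.026 on the C57BL/6J allele and 0.123 and 0.129 on the SPRET/EiJ allele in cortex, on 1259 or more and 136 or more reads (adjusted p = 0.011). It passed by FDR in 6 of 7 tissues, and in liver, where it did not, the alleles had 0.017 and 0.021 against 0 and 0.171, on 96 and 96 reads of SPRET/EiJ (adjusted p = 0.47). With DMSO the alleles had 0.029 and 0.030 against 0.351 and 0.415, and after PladB 0.015 and 0.018 against 0.306 and 0.323. In the first PladB library the SPRET/EiJ allele held 638 reads, against 9188 for C57BL/6J.

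An exon of Rps9 at chr7:3706008-3706181 (174 bp) gave smaller differences on more balanced reads. Its PSI in spleen was 0.0061 and 0.0063 on C57BL/6J and 0.025 and 0.026 on SPRET/EiJ, on 15912 reads or more (adjusted p = 5.3e-04). It passed by FDR in 6 of 7 tissues and in both fibroblast groups. The Rpl7l1 exon described above was nearly always included on the C57BL/6J allele and less on SPRET/EiJ, with 1.000 against 0.935 and 0.925 in ESC, and passed by FDR in 3 tissues. In fibroblasts it had 1.000 against 0.983 and 0.980 with DMSO, and 0.985 and 0.9896 against 0.578 and 0.577 after PladB, on 185 or more reads.

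**Figure D5:**
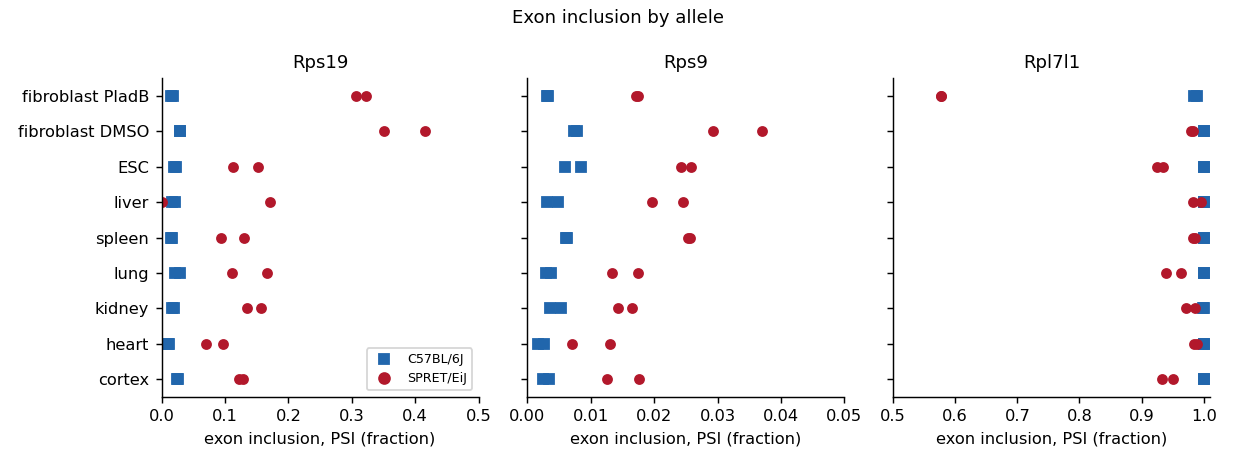
Inclusion of exons of Rps19, Rps9 and Rpl7l1 on each allele (PSI as a fraction, horizontal axes with different ranges), with the 2 libraries of each group as points, blue squares for C57BL/6J and red circles for SPRET/EiJ. The red points lie to the right of the blue ones for Rps9 in all groups, and the SPRET/EiJ value of Rpl7l1 after PladB, near 0.58, is the lowest of that panel.

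In fibroblasts the DMSO libraries gave 1 called event among 99 tested and the PladB libraries 5 among 234, where 1.82% and 1.74% of all events were called. By FDR alone 4 and 25 passed, where 3.06% and 2.88% of all events did so. The 5 were Rps19, Rpl7l1, a pair of exons of Rpl13 and 1 of Rpl18. The Rpl18 exon at chr7:45720438-45720487 had 0.909 and 0.855 on C57BL/6J and 0.993 and 0.995 on SPRET/EiJ. Whether the allelic difference itself changed with PladB was tested as an interaction. Of 85 member events 0 passed by the quasi-binomial test and 4 had an unadjusted p under 0.05, where 0.0221% of all events were called and 0.0736% passed by FDR alone. For the Rpl7l1 exon the difference grew from 0.019 to 0.41 in PSI, but the interaction on the logit scale did not pass (quasi-binomial model with limma moderation, adjusted p = 0.90), and the C57BL/6J allele had no skipping reads with DMSO.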

How the data were processed

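RNA-seq libraries of F1 tissues and fibroblasts were analysed from processed tables. HISAT2 2.0.1 was run by the authors against mm10 and against SPRET/EiJ sequence, each read went to the strain it matched with fewer edits, and rMATS supplied counts of junction reads, with both libraries of a group in 1 list. TPM was computed by the authors from featureCounts output. The deposited effective lengths of both forms are a score written by rMATS. The authors' p-values, FDR and differences, and 36 columns of inclusion levels, were not used. PSI was recomputed with at least 20 reads per event and library (per allele), without sex chromosomes, and allelic events counted where allelic and total PSI differed by at most 0.1.

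TPM was tested with limma 3.58.1 on log2(TPM + 0.1), with a mean of at least 0.5 TPM. Junction reads were tested with a quasi-binomial model with dispersions moderated by limma, and FDR by Benjamini-Hochberg over all features. The prior follows read depth, a form taken over from an earlier analysis of these data that had seen its calls. Members, lists and named genes (paralogs, stalk proteins, and the largest differences of each comparison) were chosen with earlier results of these data known. Rps4l was not analysed here. A few items are not reported here. The order of lists was checked on sums of allelic reads. That of alleles was checked on imprinted genes in cortex, heart, lung and spleen, and in liver on Sgce alone (186 reads). In ESC imprinted genes gave from 28.4% (Rian) to 58.7% (Sgce) C57BL/6J reads, which cannot show the order. For kidney and fibroblasts no imprinted gene was checked. In these groups and ESC the alleles rest on the order that the study defines. Replicate numbers were not taken as pairs between groups. Alleles are paired by their library, and their deviations correlated with r from 0.044 to 0.42 over 9 groups. Steps were tested on simulated data. Software was Python and R, and alternatives stand in the closing section.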

Additional observations from a re-analysis of the deposited data

How the results depend on the processing

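Among the counts recomputed under alternatives, 177 stayed within 1.5 times the value given and 25 did not. The replicate number as a block left 0 exons lower after PladB, 1 exon differing among tissues and 0 allelic calls in tissues and in both fibroblast groups, where it left 0%, 5.97% and 0% of all events called, and it changed no other count beyond 1.5 times. Replicate differences correlated between tissues and between treatments with r from -0.049 to 0.29 in TPM, and the sources do not say which number marks which animal, so the number was not taken as a pairing. Without a limit on the difference in PSI there were 29 exons lower after PladB, 15 introns higher, 23 exons among tissues, and 25, 4 and 25 allelic calls in tissues, DMSO and PladB libraries. A limit of 0.05 gave 2 introns and 9 allelic calls after PladB, and at least 50 reads gave 1 exon lower after PladB. Centring on the median gene left 1 member lower after PladB. After the data had been seen, the row labelled Rpl24 was left out, which left 1 member lower and 1 exon lower after PladB, and allelic calls were limited to balanced reads, which left 1 in tissues, 0 with DMSO and 3 after PladB. Leaving out 1 library gave 80 to 82 members higher and 2 lower after PladB, 0 or 1 lower in ESC (0 without the first ESC library), 2 to 6 exons lower (4 without the second DMSO and 6 without the first PladB library) and 0 or 1 higher, 0 or 1 introns higher, and 2 or 3 exons among tissues. The lone library then left is assumed to vary like the others. In allelic fits of 1 group, leaving out a library leaves no residual degrees of freedom, and this was not run. The cause of these changes was not tested.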
